A study of Sus scrofa with 28 samples.

Results

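The comparison set the left caudal lung lobe of swine that had inhaled a medium dose of sulfur mustard vapor against the same lobe of swine that had inhaled air. Its members were the 3 caudal arrays of medium animals 34, 41 and 42 and the 3 caudal arrays of air animals 28, 29 and 44, with 1 array per animal, so 6 of the 28 arrays of the study. All animals were female and were intubated, under inhaled anesthesia and lying on their backs during the 10 min exposure. Medium animals received 100 µg/kg of the agent, also called HD, low animals received 60 µg/kg and air animals received none. Medium animal 39 had no caudal array and takes no part in the caudal values. Lobes were taken 12 h after exposure, kept in RNAlater, and their total RNA was hybridised to the Affymetrix porcine array. The labels name no strain, age or batch, and no animal stands in more than 1 exposure group.

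Sulfur mustard is a bifunctional alkylating agent that forms adducts and crosslinks in DNA and also modifies protein and glutathione. Inhaled, it is known for damage to the airway lining, leakage of plasma, fibrin casts and an influx of leukocytes over the following hours. Cells with DNA damage are known to stabilise p53, and injured epithelium is known to release ligands of the EGF receptor and to display tissue factor, which starts clotting. A piece of lobe can hold alveoli, airways, vessels and blood. In RNA of such whole tissue, fewer cells of a type and less RNA per cell cannot be told apart.

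Values below are deposited signals per probe set on a linear scale, and differences are log2 differences of medium minus air with the standard error from limma, over 3 medium and 3 air animals. They were computed after adding 16 to each signal and quantile normalizing the arrays, which understates the change of dim probe sets. Unless stated otherwise a gene is represented by its brightest probe set, and a probe set passed at a Benjamini-Hochberg adjusted p under 0.05 over 23999 probe sets. The caudal arrays had median signals from 56.5 to 64.4, and the mean correlation of each with the other caudal arrays ranged from 0.972 to 0.981. The lung label was borne out by SFTPC, the surfactant protein of alveolar type 2 cells, which had signals of 2728, 3315 and 3370 in medium lobes and 3019, 2489 and 3077 in air lobes. An index of the 3' to 5' signal ratio of actin and GAPDH control probe sets, higher where RNA is less intact, averaged 0.885 ± 0.262 in medium lobes and 1.28 ± 0.53 in air lobes (SD, n = 3 each). It differed by -0.393 (exact permutation p = 0.5, two-sided), where 20 splits allow no p below 0.1. Air animal 28 had the highest index of the 6 arrays, 1.88, and medium animal 34 the lowest, 0.60.

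The comparison asks which transcripts of the caudal lobe differed 12 h after the larger of the 2 doses. Of 23999 probe sets, 1 passed, or 0.00417%, and it was higher in medium lobes; it belongs to THBS1. At an unadjusted p under 0.05 there were 1712 probe sets higher in medium lobes (7.13%) and 2002 lower (8.34%). In 2223 probe sets (9.26%) all 3 medium lobes lay above all 3 air lobes, and in 2473 (10.3%) all 3 lay below. By brightest probe set, 0 of 6765 genes passed, while 492 genes (7.27%) were higher and 617 (9.12%) lower at an unadjusted p under 0.05. The median difference over the 6765 genes was -0.01. Each group of genes was also computed with each of the 6 animals left out in turn. The counts were added after the data were seen. The range of the median or counts, or values without single animals, is given for many groups but not for all. A group without a range is not thereby stable. Groups of genes below are read against these shares, and no member of any gene list passed by its brightest probe set. The lists were chosen with earlier results of these data known, so a share above that of all genes is a description and not a test.

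**Figure D1:**
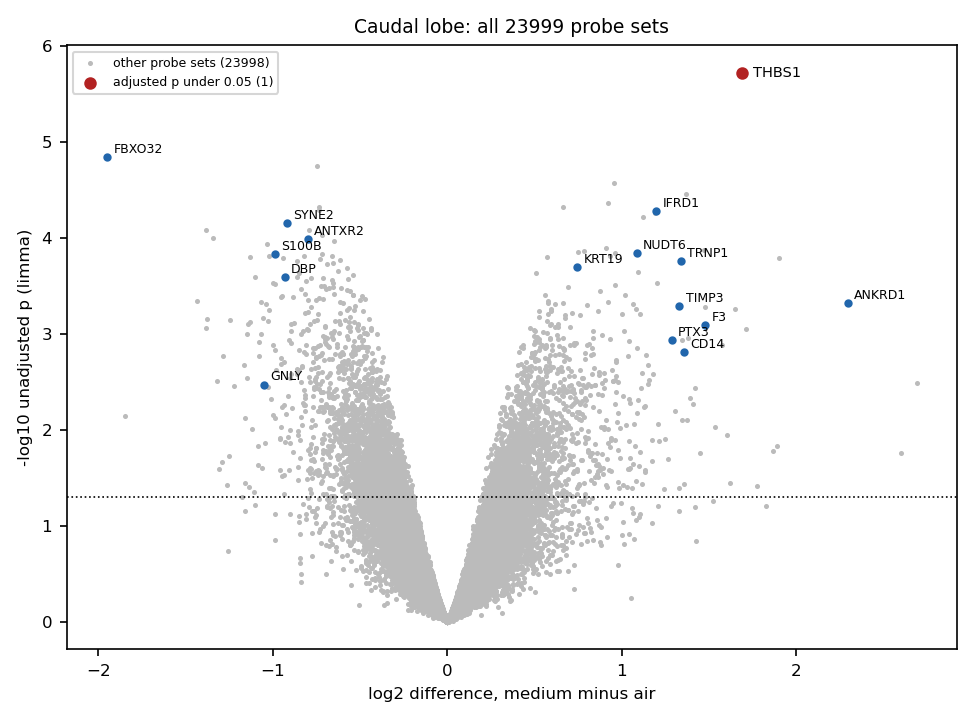
Each point is a probe set, with the log2 difference of medium minus air in the caudal lobe on the horizontal axis and the negative log10 of the unadjusted p on the vertical axis, where the dotted line marks an unadjusted p of 0.05. The single probe set that passed belongs to THBS1, at a difference of 1.69, and the labelled genes around it did not pass.

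THBS1 encodes thrombospondin 1, a matrix glycoprotein that platelets and injured tissue release and that activates latent TGF-beta. The THBS1 probe set that passed had signals of 636, 698 and 653 in medium lobes and 148, 241 and 212 in air lobes. All 3 medium lobes lay far above the air lobes, and their spread was narrow. THBS1 rose by this probe set by 1.69 ± 0.16 (limma, adjusted p = 0.0458), and low lobes had signals of 246, 266 and 227. The array carries 5 THBS1 probe sets, and the one that passed is not the brightest and was singled out after its values were seen. Differences of the other 4 were all above 0, at 0.43 ± 0.19 for the brightest, 1.33 ± 0.65, 0.60 ± 0.11 and 0.39 ± 0.18, and none of them passed. The mean of the 5 probe sets differed by 0.89 ± 0.19 (adjusted p = 0.114). The pass was lost when air animal 29 (adjusted p = 0.0634), air animal 44 (0.0911), medium animal 41 (0.184) or medium animal 42 (0.234) was left out, with differences of 1.64 to 1.82. It was also lost with an offset of 1, with only the medium and air arrays in the fit, with all 28 arrays under a random block for animal, and with the 3' to 5' index as a covariate.

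**Figure D2:**
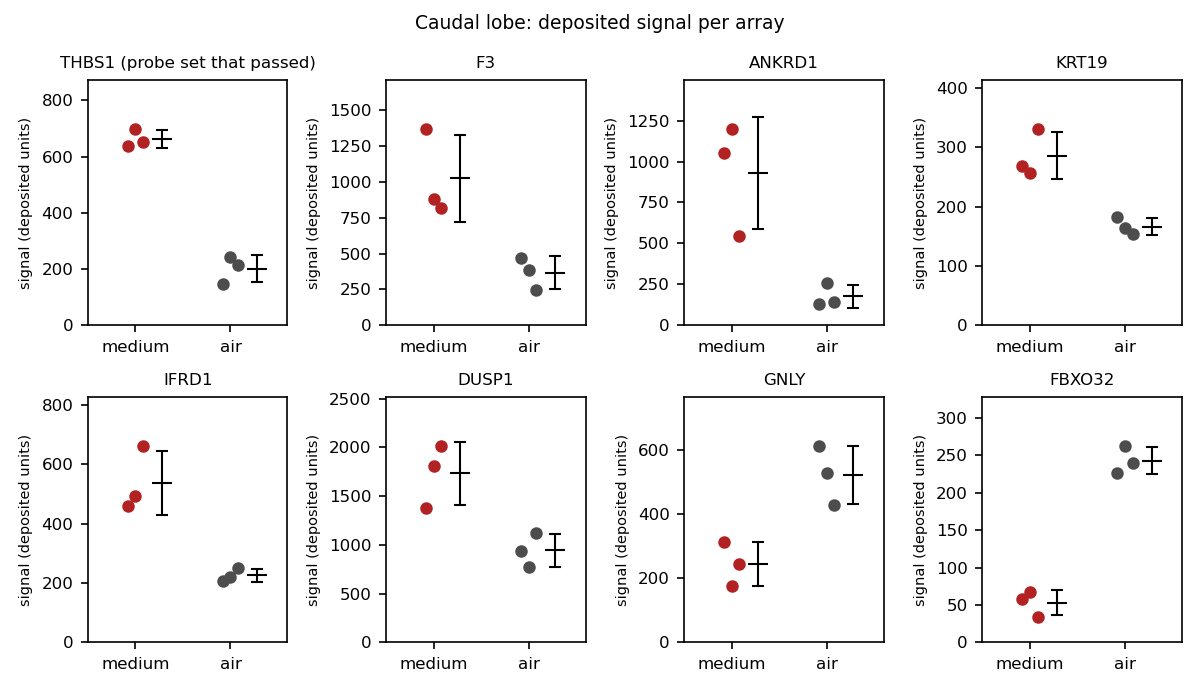
Deposited signal of 8 transcripts in each caudal lobe, with medium animals left of air animals and the mean and SD of 3 animals beside the points. The medium and air lobes do not overlap in any of the 8 panels, of which THBS1 alone passed.

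Thrombospondin stands beside clotting, and other clotting genes lay on the same side of air without passing. Tissue factor, F3, the receptor that starts coagulation, had signals of 1369, 884 and 819 in medium lobes and 471, 388 and 244 in air lobes. Every medium lobe was above every air lobe, with a difference of 1.48 ± 0.30 (adjusted p = 0.125). The urokinase gene PLAU, whose product activates plasminogen, had 422, 407 and 363 in medium lobes and 222, 260 and 333 in air lobes, a difference of 0.55 ± 0.15. Going the other way, PROS1, which encodes the anticoagulant cofactor protein S, had 732, 749 and 706 in medium lobes and 895, 1016 and 959 in air lobes. Its difference was -0.36 ± 0.11, again with no overlap. Of 19 measured coagulation and fibrinolysis genes, 14 were above 0 with a median of 0.20. At an unadjusted p under 0.05, 5 (26.3%) were higher and 1 (5.3%) lower, against 7.27% and 9.12% of all genes. Leaving out 1 animal gave 3 to 6 higher, with 3 without air animal 28 or medium animal 41.

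By brightest probe set, the gene with the smallest p was lower in medium lobes. FBXO32, also known as atrogin-1, encodes the F-box subunit of a ubiquitin ligase that FOXO factors induce in wasting muscle. It had signals of 58.5, 67.0 and 34.5 in medium lobes and 227, 262 and 240 in air lobes. The highest medium lobe lay far below the lowest air lobe, with a difference of -1.95 ± 0.23 (adjusted p = 0.104). A dimmer FBXO32 probe set differed by -1.38 ± 0.27. FBXO32 passed in 4 of the other settings: among the brighter probe sets, with trend and robust variance estimates, without medium animal 34, and with all 28 arrays under a random block for animal.

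Among the 15 lower genes of smallest p, all had medium lobes below all air lobes, with differences from -0.54 to -1.95 and adjusted p of 0.104 to 0.116. SYNE2, a nesprin that ties the nucleus to the cytoskeleton, had signals of 244, 329 and 252 in medium lobes and 555, 575 and 478 in air lobes, a difference of -0.92 ± 0.13. Its 2 dimmer probe sets differed by -0.53 ± 0.13 and -0.02 ± 0.13. ACAA2, a thiolase of mitochondrial fatty acid oxidation, had 186, 169 and 171 in medium lobes and 288, 304 and 313 in air lobes (-0.72 ± 0.11). RETSAT, a saturase of retinol, had 521, 521 and 540 in medium lobes and 775, 886 and 734 in air lobes (-0.57 ± 0.10). DBP, a clock-controlled transcription factor, had 71.6, 59.1 and 90.5 in medium lobes and 150, 159 and 150 in air lobes (-0.93 ± 0.16). The air lobes of ACAA2 and DBP spread little, and no medium lobe came near them.

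Membrane and signalling genes made up part of the rest of the lower set. ANTXR2, a receptor of anthrax toxin that binds basement membrane collagen, had 416, 350 and 394 in medium lobes and 723, 633 and 705 in air lobes (-0.80 ± 0.12). S100B, a calcium-binding protein, had 200, 189 and 147 in medium lobes and 415, 389 and 321 in air lobes (-0.99 ± 0.16). TSPAN7, a tetraspanin, had 73.3, 94.1 and 83.4 in medium lobes and 170, 159 and 123 in air lobes (-0.72 ± 0.13). HEY2, a target of Notch signalling, had 45.3, 44.8 and 45.5 in medium lobes and 66.6, 74.7 and 74.1 in air lobes (-0.57 ± 0.10). Its dimmer probe sets differed by -0.15 ± 0.16 and -0.11 ± 0.12. IFT46, a protein of transport within cilia, had 157, 124 and 137 in medium lobes and 263, 281 and 209 in air lobes (-0.76 ± 0.14). The remaining lower genes were VPS11, a subunit of endosomal tethering complexes, LYPD6, DUSP23, TBC1D22A and UBE2QL1, with differences from -0.54 to -0.94. A dimmer DUSP23 probe set differed by -0.15 ± 0.10.

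The 15 higher genes of smallest p had all medium lobes above all air lobes, with differences from 0.51 to 2.30 and adjusted p of 0.104 to 0.125. IFRD1, a transcriptional coregulator induced by stress and growth factors, had signals of 458, 491 and 660 in medium lobes and 207, 221 and 249 in air lobes. It differed by 1.20 ± 0.17, and its dimmer probe set by 1.48 ± 0.28. GADD45B, a stress-induced regulator of MAP kinases, had 332, 364 and 512 in medium lobes and 176, 166 and 196 in air lobes (1.09 ± 0.19). TIMP3, an inhibitor of metalloproteases that binds to matrix, had 172, 200 and 365 in medium lobes and 74.5, 86.3 and 89.0 in air lobes (1.33 ± 0.25). FSTL3, a secreted inhibitor of activin, had 414, 489 and 550 in medium lobes and 249, 227 and 207 in air lobes (1.07 ± 0.20). For each of these 4 genes the lowest medium lobe exceeded the highest air lobe.

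TRNP1, a nuclear protein, had signals of 178, 298 and 295 in medium lobes and 118, 88.1 and 70.4 in air lobes (1.34 ± 0.22). RCAN1, an inhibitor of calcineurin that calcium signalling induces, had 446, 382 and 454 in medium lobes and 291, 268 and 291 in air lobes (0.57 ± 0.11). NUDT6, a nudix family member antisense to FGF2, had 266, 353 and 264 in medium lobes and 125, 117 and 152 in air lobes (1.09 ± 0.17). Its 2 probe sets disagreed, since the dimmer one differed by -0.26 ± 0.15. TINAGL1, a matrix protein, RASSF1, CEBPG, UTP4, DEPDC7 and ATP5J, a subunit of ATP synthase, completed the set with differences from 0.51 to 0.86. Of these 30 genes, 18 passed without medium animal 34 and 13 with all 28 arrays under a random block for animal. All 30 kept their direction in every setting tried, except that 3 of them were not among the brighter probe sets and had no value there. The settings reuse the arrays whose values chose these 30 genes, so their kept direction is no separate support.

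Immediate early genes, the first to be transcribed after a stimulus and needing no new protein for it, leaned above air together. All 13 measured members were above 0, with a median of 0.61, and 7 (53.8%) had an unadjusted p under 0.05, all higher, against 7.27% of all genes. Leaving out 1 animal gave 6 to 9. DUSP1, a phosphatase that switches MAP kinases off, had 1380, 1814 and 2012 in medium lobes and 933, 775 and 1120 in air lobes (0.84 ± 0.17). FOS, a subunit of AP-1, had 1191, 556 and 498 in medium lobes and 366, 145 and 355 in air lobes (1.35 ± 0.40, adjusted p = 0.191). FOS varied widely in both groups, with medium animal 34 far above the other medium animals. MYC, the growth regulator, had 294, 246 and 316 in medium lobes and 203, 185 and 211 in air lobes (0.50 ± 0.12). NR4A3, an orphan nuclear receptor, had 64, 117 and 64 in medium lobes and 37.1, 32.3 and 39.9 in air lobes (0.84 ± 0.20).

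Glucocorticoid-responsive genes shared DUSP1 with that list. Of 15 measured, 14 were above 0 with a median of 0.62, and 5 (33.3%) were higher at an unadjusted p under 0.05. That number was 8 without medium animal 34 and 3 without any other animal of the 6. The median ranged from 0.31 without medium animal 41 or air animal 44, and 0.33 without medium animal 42, to 0.94 without medium animal 34. ANGPTL4, an inhibitor of lipoprotein lipase, had signals of 220, 402 and 312 in medium lobes and 181, 208 and 141 in air lobes (0.76 ± 0.22). CEBPD, a transcription factor of the acute phase, had 1410, 2283 and 2343 in medium lobes and 1548, 1072 and 1013 in air lobes (0.70 ± 0.22). Its dimmer probe sets differed by 1.37 ± 0.18 and 0.71 ± 0.17. By its brightest probe set the CEBPD groups overlapped through medium animal 34. The summed signal of the 15 genes showed the same overlap, at 9007, 15282 and 17002 in medium lobes and 10475, 9182 and 8893 in air lobes.

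**Figure D3:**
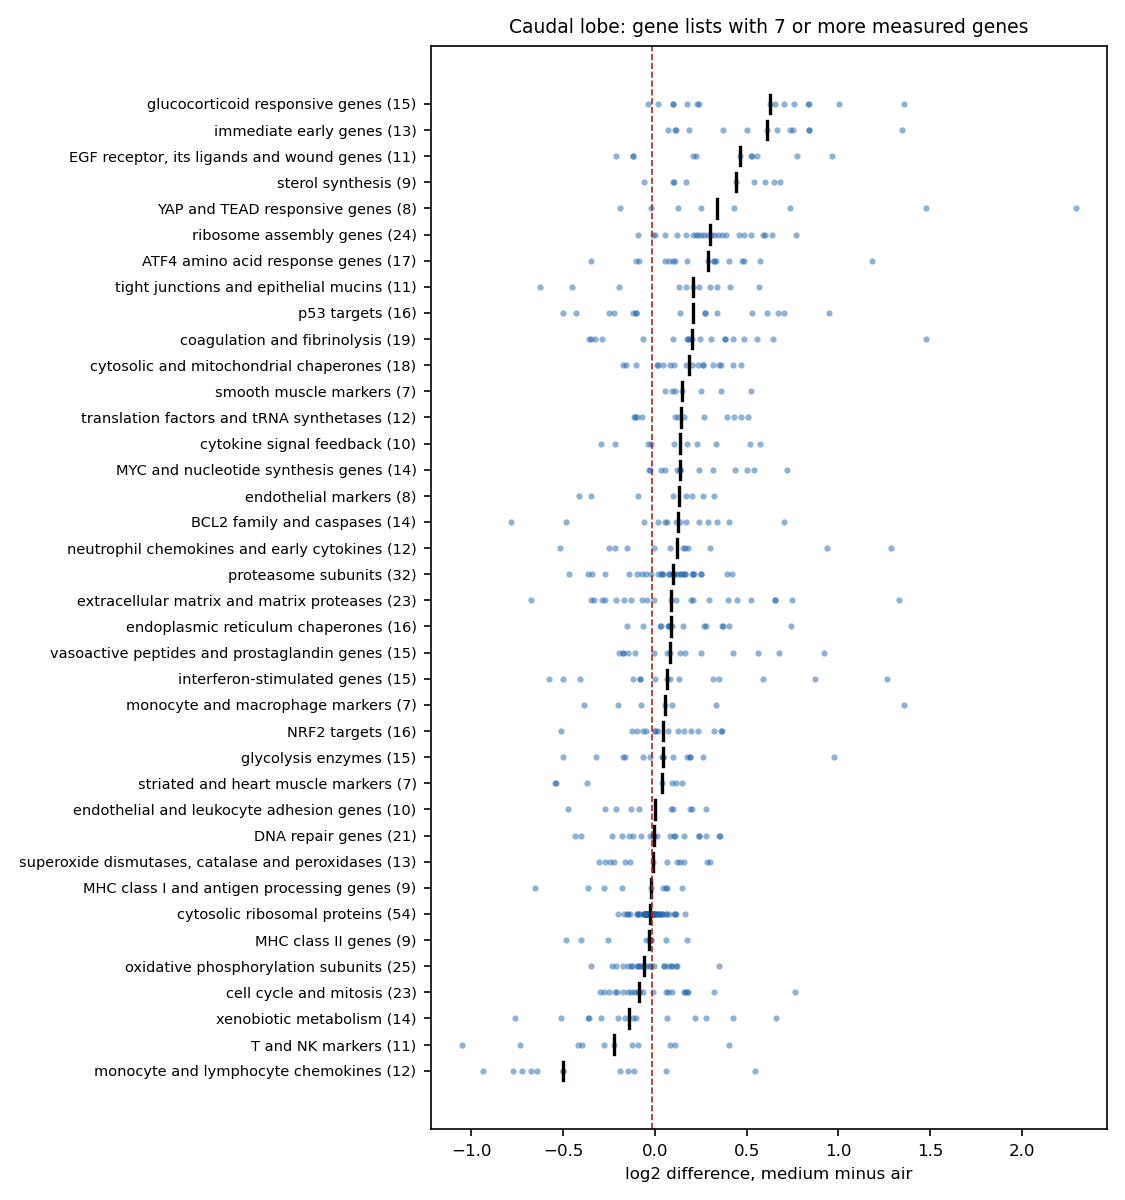
Log2 difference of medium minus air in the caudal lobe for each measured gene of the lists with at least 7 measured genes, with a black bar at the median of the list and a dashed line at the median of all genes, -0.01. Immediate early and glucocorticoid-responsive genes have the highest medians, 0.61 and 0.62, and monocyte and lymphocyte chemokines the lowest, -0.50.

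Genes that answer to YAP and TEAD, the factors that sense stretch and the cytoskeleton, included the largest difference among the 30 genes. ANKRD1, an ankyrin repeat protein and a standard YAP target, had signals of 1050, 1199 and 544 in medium lobes and 130, 259 and 142 in air lobes. The lowest medium lobe was above the highest air lobe, with a difference of 2.30 ± 0.43 (adjusted p = 0.116), and its dimmer probe set differed by 1.13 ± 0.32. CYR61, a matrix-associated protein of the CCN family, had 1284, 873 and 937 in medium lobes and 557, 481 and 832 in air lobes (0.74 ± 0.24). Of 8 measured members 6 were above 0 with a median of 0.34, and 3 were higher at an unadjusted p under 0.05, F3 among them. Without medium animal 34 the median was 0.19, with 8 of 8 above 0 and 2 higher. Their summed signal was 5530, 5156 and 4485 in medium lobes and 3408, 3144 and 3262 in air lobes.

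EGF receptor ligands and wound genes leaned the same way, with a median of 0.47 over 11 measured members, 8 above 0, and 6 (54.5%) higher and 0 lower at an unadjusted p under 0.05. The median was 0.29 without medium animal 34, and leaving out 1 animal gave 4 to 6 higher. TNFRSF12A, which binds the cytokine TWEAK and is induced by growth factors, had 478, 278 and 278 in medium lobes and 131, 169 and 204 in air lobes (0.96 ± 0.24). TGFA, a ligand of the EGF receptor, was dim, with 27.3, 32.7 and 40.6 in medium lobes and 9.09, 19.8 and 20.1 in air lobes (0.53 ± 0.15). PLAU belongs to this list as well.

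Simple epithelial keratins, the intermediate filaments of lung epithelium, were higher in medium lobes in all 3 measured members at an unadjusted p under 0.05, with no overlap of the groups. Leaving out 1 animal gave 2 or 3 of them. KRT19 had signals of 269, 257 and 331 in medium lobes and 182, 163 and 153 in air lobes (0.75 ± 0.12, adjusted p = 0.111). KRT18 had 374, 384 and 573 in medium lobes and 236, 206 and 220 in air lobes (0.96 ± 0.26). KRT8, its partner in the filament, had 782, 852 and 1281 in medium lobes and 681, 698 and 548 in air lobes (0.55 ± 0.23), and its dimmer probe set differed by 1.47 ± 0.23. Medium animal 42 was the highest in each of the 3 keratins. Of the markers of epithelial cell types, 4 of 5 alveolar type 2 genes (median 0.14), 2 of 5 alveolar type 1 genes (-0.06), 2 of 5 ciliated genes (-0.17) and 2 of 3 airway secretory genes (0.62), KRT19 among the last, were above 0. Without air animal 28 the ciliated median was 0.02 and the alveolar type 2 median 0.06. The airway secretory median ranged from 0.35 without air animal 44 to 0.81 without air animal 28.

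The targets of p53 were mixed. CDKN1A, which encodes the cell cycle inhibitor p21, had signals of 221, 438 and 276 in medium lobes and 181, 148 and 125 in air lobes (0.95 ± 0.24, adjusted p = 0.151). GADD45A, a sensor of DNA damage, had 377, 493 and 518 in medium lobes and 292, 303 and 269 in air lobes (0.67 ± 0.15). PMAIP1, the pro-apoptotic BCL2 family member NOXA, had 127, 87.7 and 169 in medium lobes and 51.1, 61.2 and 101 in air lobes, overlapping (0.70 ± 0.25). Among 16 measured genes with a median of 0.21, these 3 (18.8%) were higher at an unadjusted p under 0.05 and 2 (12.5%) lower. All genes had shares of 7.27% and 9.12%. The median was 0.04 without air animal 28 and 0.09 without medium animal 41, and leaving out 1 animal gave 2 to 6 higher, the most without air animal 44, and 0 to 2 lower. DNA repair genes had 10 of 21 above 0 and a median of -0.01 that ranged from -0.04 to 0.08 with 1 animal left out. At an unadjusted p under 0.05, 1 was higher and 1 lower (4.8% each, below the shares of all genes). The smallest p in this list belonged to APEX1, a base excision nuclease (0.35 ± 0.15), and FANCA, of the crosslink repair complex (-0.40 ± 0.17). Among BCL2 family members and caspases, 11 of 14 were above 0 with a median of 0.13. Members higher at an unadjusted p under 0.05 numbered 3 (21.4%) and lower ones 2 (14.3%), against 7.27% and 9.12% of all genes. Leaving out 1 animal gave 1 to 4 higher and 1 lower. BNIP3L was lower without overlap (-0.48 ± 0.18), while its dimmer probe set differed by 0.08 ± 0.25. CFLAR, an inhibitor of caspase 8, had 580, 565 and 743 in medium lobes and 443, 503 and 481 in air lobes (0.40 ± 0.13).

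Ribosome assembly genes lay mostly above air. Of 24 measured, 21 were above 0 with a median of 0.30, 12 (50%, against 9.4% of all genes) had all medium lobes above all air lobes, and 11 (45.8%) were higher at an unadjusted p under 0.05, with 0 lower. Leaving out 1 animal gave 6 to 13 higher, the fewest without medium animal 34, and medians of 0.23 to 0.37. UTP4, of the small subunit processome, had 328, 252 and 270 in medium lobes and 187, 166 and 205 in air lobes (0.59 ± 0.12, adjusted p = 0.125). DKC1, the pseudouridine synthase dyskerin, had 426, 310 and 413 in medium lobes and 263, 221 and 246 in air lobes (0.64 ± 0.14). NOP58, a core protein of box C/D particles, had 703, 596 and 634 in medium lobes and 475, 438 and 499 in air lobes (0.46 ± 0.12). Summed over the list, the signal was 8639, 6777 and 7365 in medium lobes and 6287, 6181 and 6599 in air lobes, with medium animal 34 the highest. Of the genes for proteins of the finished ribosome, 16 of 54 were above 0 with a median of -0.03, and 0 were higher at an unadjusted p under 0.05.

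Genes of the ATF4 response, which supplies amino acids and charged tRNA under stress, numbered 14 of 17 above 0 with a median of 0.29, and 6 (35.3%) were higher at an unadjusted p under 0.05. The median was 0.14 without air animal 29 and 0.18 without medium animal 34. PYCR1, the last enzyme of proline synthesis, had signals of 216, 187 and 174 in medium lobes and 65.8, 51.5 and 121 in air lobes (1.18 ± 0.29). SLC7A1, a carrier of cationic amino acids, had 307, 269 and 296 in medium lobes and 193, 185 and 205 in air lobes (0.57 ± 0.16), and GARS, the glycyl-tRNA synthetase, differed by 0.48 ± 0.13. Translation factors and tRNA synthetases had 8 of 12 above 0 with a median of 0.14, and EIF3B, a scaffold subunit of initiation factor eIF3, had 367, 314 and 346 in medium lobes and 237, 241 and 243 in air lobes (0.50 ± 0.13). Sterol synthesis genes had 8 of 9 above 0 with a median of 0.44 and 5 (55.6%) higher at an unadjusted p under 0.05. That count was 2 without air animal 28, air animal 29 or medium animal 34, and 3 without medium animal 42. NSDHL, a dehydrogenase of the pathway, had 162, 141 and 114 in medium lobes and 75.3, 88.4 and 93.2 in air lobes (0.60 ± 0.13). Endoplasmic reticulum chaperones, with 14 of 16 above 0, and cytosolic and mitochondrial chaperones, with 15 of 18, had small medians of 0.09 and 0.19, which were 0.03 without medium animal 34 and 0.05 without air animal 29.

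Neutrophil chemokines and early cytokines, the signals known to bring in neutrophils after inhaled injury, had members on both sides of air. CXCL8, the main neutrophil chemokine, had signals of 58.8, 89.2 and 122 in medium lobes and 96.7, 65.3 and 50.3 in air lobes (0.30 ± 0.25, adjusted p = 0.611). IL6 was dim, with 23.8, 32.4 and 20.7 in medium lobes and 14.9, 19.8 and 20.4 in air lobes (0.16 ± 0.11), and IL1B had 49.8, 72.1 and 58.4 in medium lobes and 85.5, 70.7 and 59.5 in air lobes (-0.22 ± 0.14). These groups overlapped or touched. PTX3, a pentraxin that opsonises microbes, did not overlap, with 428, 367 and 259 in medium lobes and 215, 92.0 and 120 in air lobes (1.29 ± 0.28, adjusted p = 0.125). CXCL2 had 199, 167 and 105 in medium lobes and 125, 47.5 and 60.7 in air lobes (0.94 ± 0.36), and TNF had 42.1, 34.6 and 40.5 in medium lobes and 41.6, 59.4 and 77.5 in air lobes (-0.52 ± 0.19). The list of 12 had 7 above 0 and a median of 0.12, which was -0.03 without air animal 44. After normalization 1 member (8.3%) had all medium lobes above all air lobes, and 2 (16.7%), TNF among them, had all below. The shares of all genes were 9.4% and 11.2%.

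Chemokines that attract monocytes and lymphocytes lay mostly below air: 2 of 12 were above 0 and the median was -0.50. After normalization 1 member (8.3%) had all medium lobes below all air lobes, against 11.2% of all genes. The count of members lower at an unadjusted p under 0.05 was 2 (16.7%, against 9.12% of all genes). That count was 1 to 6 with 1 animal left out, the most without medium animal 34. The median ranged from -0.74 without that animal to -0.27 without medium animal 41 and -0.28 without air animal 28. CXCL12, a homeostatic chemokine of stromal cells, had signals of 185, 122 and 69.4 in medium lobes and 241, 244 and 240 in air lobes (-0.94 ± 0.26, adjusted p = 0.175). CXCL14 had 1728, 943 and 1191 in medium lobes and 1740, 1837 and 1774 in air lobes (-0.50 ± 0.19). In both genes medium animal 34 lay closest to air. Interferon-stimulated genes had 8 of 15 above 0 and a median of 0.06, whose sign rested on single animals. It was 0.26 with 12 above 0 without air animal 28, -0.09 with 4 above 0 without medium animal 34, and -0.11 without air animal 44. At an unadjusted p under 0.05, 3 members (20%) were higher and 1 (6.7%) lower. Leaving out 1 animal gave 0 to 2 higher and 1 to 3 lower. OAS1, a sensor of double-stranded RNA, overlapped between groups with 702, 270 and 446 in medium lobes and 124, 346 and 123 in air lobes (1.26 ± 0.45). IRF1, of smallest p in this list, went the other way without overlap. It had 600, 458 and 527 in medium lobes and 982, 682 and 737 in air lobes (-0.58 ± 0.18).

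Markers of T and NK cells had 3 of 11 above 0 and a median of -0.22. Of them 2 (18.2%) were lower at an unadjusted p under 0.05, against 9.12% of all genes. The median was -0.43 with 4 lower without medium animal 34, and -0.04 without medium animal 41. Their summed signal was 1494, 999 and 1296 in medium lobes and 1801, 1693 and 1864 in air lobes. GNLY, the lytic granule protein granulysin, had 311, 176 and 244 in medium lobes and 610, 526 and 428 in air lobes (-1.05 ± 0.27, adjusted p = 0.152). CD3E, a chain of the T cell receptor complex, had 238, 196 and 239 in medium lobes and 292, 330 and 302 in air lobes (-0.42 ± 0.12). JCHAIN, the joining chain of secreted antibodies, had 1476, 1329 and 1428 in medium lobes and 2082, 1972 and 1629 in air lobes (-0.42 ± 0.11). The 3 genes had no overlap between groups, though JCHAIN belongs to the B and plasma markers, of which 2 were measured. Of the 11 T and NK markers, 3 (27.3%) had all medium lobes below all air lobes and 1 (9.1%) had all above. The shares of all genes were 11.2% and 9.4%. Neutrophil markers had a summed signal over 5 genes of 1954, 1618 and 2376 in medium lobes and 1533, 2210 and 1433 in air lobes, which overlapped, and S100A8, a calcium-binding protein of neutrophils, differed by 0.58 ± 0.26. CD14, the lipopolysaccharide coreceptor, had 124, 110 and 181 in medium lobes and 22.2, 48.2 and 63.2 in air lobes (1.36 ± 0.31, adjusted p = 0.129). CD163, a macrophage receptor, overlapped between groups (0.33 ± 0.25), and AIF1 of the same list went the other way (-0.39 ± 0.14). Of the 7 monocyte and macrophage markers 4 were above 0, and 1 was higher and 1 lower at an unadjusted p under 0.05. Their median was 0.05, and -0.20 without air animal 28. Whether the leukocyte makeup bears on the lists above was not tested.

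Of the alveolar type 2 markers, SFTPB, the surfactant protein needed for the surface film, had signals of 671, 710 and 884 in medium lobes and 139, 426 and 637 in air lobes (1.11 ± 0.46). The air animals spread widely here, from 139 to 637. SFTPC differed by 0.11 ± 0.09. MUC1, a mucin of epithelial surfaces, had 110, 75.9 and 132 in medium lobes and 159, 178 and 170 in air lobes (-0.62 ± 0.18, adjusted p = 0.181). Its dimmer probe set differed by 0.03 ± 0.15. Airway secretory markers were measured in 3 of 10 genes, and their summed signal of 589, 392 and 480 in medium lobes and 984, 538 and 212 in air lobes followed BPIFA1, a secreted airway protein that varied between air animals from 42.6 to 761. No basal cell marker of the 4 listed was measured under a single symbol. Xenobiotic metabolism genes had 5 of 14 above 0 and a median of -0.14. Of them 3 (21.4%) were lower at an unadjusted p under 0.05, against 9.12% of all genes. The median was -0.23 without medium animal 34, -0.22 without air animal 29 and -0.03 without medium animal 41. EPHX1, the microsomal epoxide hydrolase, had 519, 486 and 518 in medium lobes and 962, 659 and 620 in air lobes (-0.51 ± 0.16).

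Targets of NRF2, a transcription factor that electrophiles activate, had 9 of 16 above 0 and a median of 0.04, which stayed under 0.1 with any 1 animal left out. At an unadjusted p under 0.05, 2 (12.5%) were higher and 1 (6.25%) lower, against 7.27% and 9.12% of all genes. After normalization 1 (6.25%) had all medium lobes above all air lobes and 2 (12.5%) had all below, against 9.4% and 11.2%. EPHX1, given above, also belongs to this list, had its smallest p and was lower. HMOX1, the inducible heme oxygenase, had 1396, 998 and 1070 in medium lobes and 1038, 758 and 1126 in air lobes (0.24 ± 0.21), and TXNRD1, thioredoxin reductase, had 591, 517 and 657 in medium lobes and 470, 477 and 429 in air lobes (0.36 ± 0.12). Dimmer TXNRD1 probe sets differed by 0.65 ± 0.19 and -0.21 ± 0.28. Matrix genes and matrix proteases had 12 of 23 above 0 and a median of 0.09. Of them 5 (21.7%) were higher and 1 (4.3%) lower at an unadjusted p under 0.05. Without air animal 28 there were 2 higher, and without medium animal 34 the median was -0.03. COL5A1, a fibrillar collagen, had 795, 1074 and 872 in medium lobes and 592, 525 and 615 in air lobes (0.65 ± 0.16). Cell cycle genes had 9 of 23 above 0 and oxidative phosphorylation subunits 8 of 25, with medians of -0.08 and -0.06, which were 0.05 and 0.01 without medium animal 41.

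The caudal difference was set against that in the other lobes of the same exposures, with the animal as a fixed block over all 28 arrays. In this test of the difference itself, 0 of 23999 probe sets passed (limma, smallest adjusted p = 0.378), and 1391 (5.8%) had an unadjusted p under 0.05. Tested lobe by lobe, medium against air passed for 1 probe set (0.00417%) in the caudal lobe, for 0 in the apical lobe and for 97 (0.404%) in the median lobe, where medium animals numbered 4. Medium animals were 34, 39 and 42 in the apical lobe and 34, 39, 41 and 42 in the median lobe. Animal 39 had 3' to 5' indexes of 1.92 and 2.36 there. Values given lobe by lobe therefore do not rest on the same medium animals. FBXO32 differed by -1.95 ± 0.23 in the caudal, -1.52 ± 0.20 in the apical and -1.82 ± 0.27 in the median lobe. IFRD1 differed by 1.20 ± 0.17, 0.75 ± 0.32 and 1.18 ± 0.27 in the same lobes. The THBS1 probe set differed by 1.69 ± 0.16 in the caudal, 0.47 ± 0.43 in the apical and 1.71 ± 0.44 in the median lobe. With the animal held fixed, its contrast of the caudal lobe against the other lobes was 0.17 ± 0.35. For these 3, the caudal and median lobes had the larger differences, and the difference between lobes passed for none of them.

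**Figure D4:**
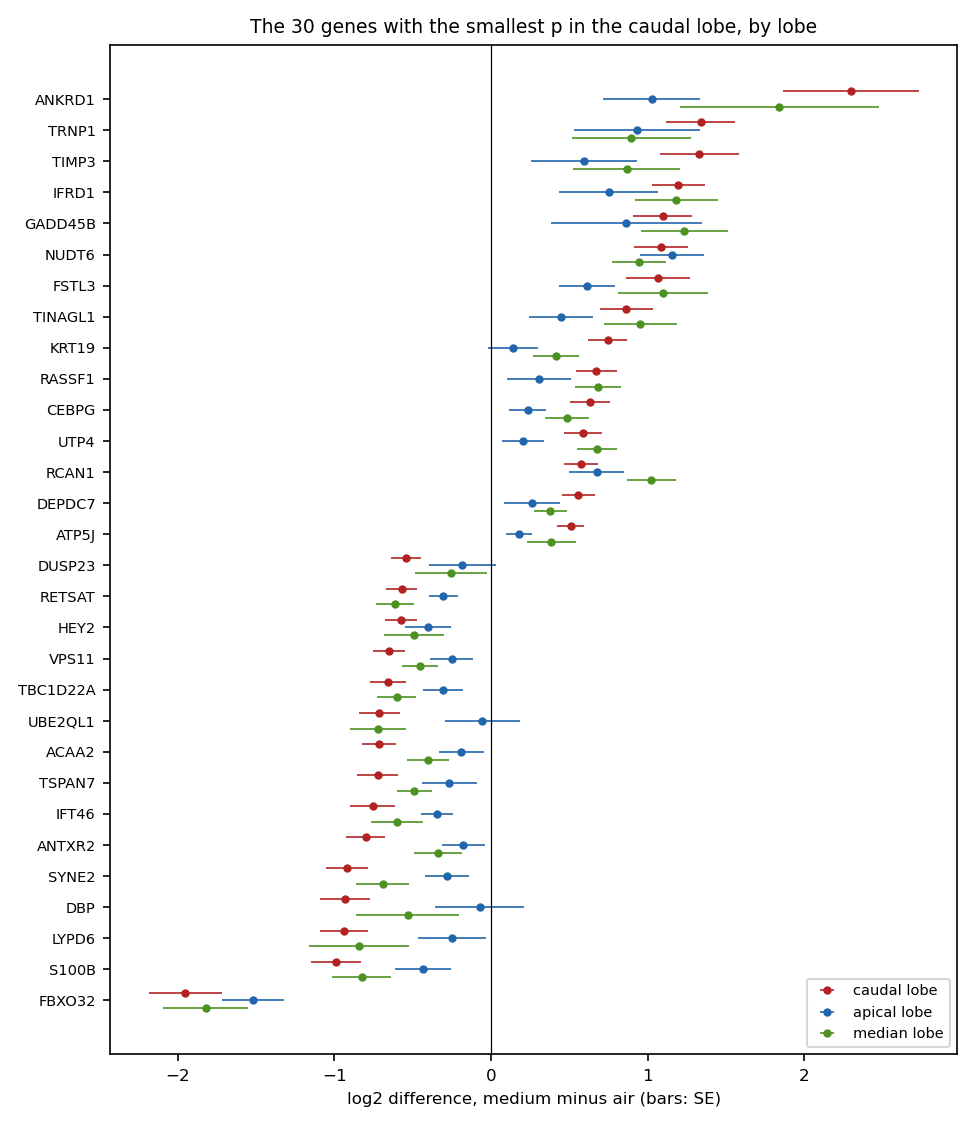
Log2 difference of medium minus air with its SE for the 15 lower and 15 higher genes of smallest caudal p, in the caudal, apical and median lobes. The caudal values chose the genes, so they are a description, and FBXO32 is low in all 3 lobes (-1.95, -1.52 and -1.82).

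Genes nearest to a lobe difference included ones whose direction was not shared. THG1L, a tRNA guanylyltransferase, had caudal signals of 58.9, 87.8 and 76.7 in medium lobes and 130, 102 and 141 in air lobes, a difference of -0.62 ± 0.15, against 0.18 in the apical and 0.35 in the median lobe. It was the gene of smallest p in the lobe contrast and did not pass (adjusted p = 0.378). A dimmer THG1L probe set went the other way in the caudal lobe, at 0.11 ± 0.19. EP400, a chromatin remodeller, differed by -0.64 in the caudal, 0.05 in the apical and 0.71 in the median lobe. Its dimmer probe set differed by -0.03 ± 0.21 in the caudal lobe. ANTXR2 and ACAA2 differed by -0.80 and -0.72 in the caudal lobe, against -0.18 and -0.19 in the apical and -0.34 and -0.40 in the median lobe. KRT19 differed by 0.75 in the caudal, 0.14 in the apical and 0.42 in the median lobe. Gene lists gave similar sets of values: immediate early genes had medians of 0.61, 0.48 and 0.81 in the caudal, apical and median lobes, ribosome assembly genes 0.30, 0.09 and 0.49, and T and NK markers -0.22, -0.10 and -0.50.

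Low animals were measured in the same lobe, and their differences from air share the air arrays with the values above. In caudal lobes 0 probe sets passed in low minus air and 0 in medium minus low. F3 had signals of 471, 388 and 244 in air lobes, 615, 1150 and 698 in low lobes and 1369, 884 and 819 in medium lobes. ANKRD1 averaged 177 ± 71.3 in air, 454 ± 288 in low and 931 ± 343 in medium lobes (SD, n = 3 each), and FBXO32 averaged 243 ± 17.9, 106 ± 33.8 and 53.3 ± 16.9. The means of both stood in dose order, though low animal 32 lay among the medium lobes of ANKRD1 at 786. IFRD1 averaged 226 ± 21.8 in air, 261 ± 45.0 in low and 536 ± 108 in medium lobes, and SYNE2 averaged 536 ± 50.9, 482 ± 40.3 and 275 ± 47.1, so low lobes lay near air. KRT19 averaged 166 ± 14.7 in air, 344 ± 34.9 in low and 285 ± 39.6 in medium lobes, with low above medium. FOS averaged 289 ± 125, 690 ± 164 and 748 ± 385 in the same order, and its low and medium lobes overlapped.

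**Figure D5:**
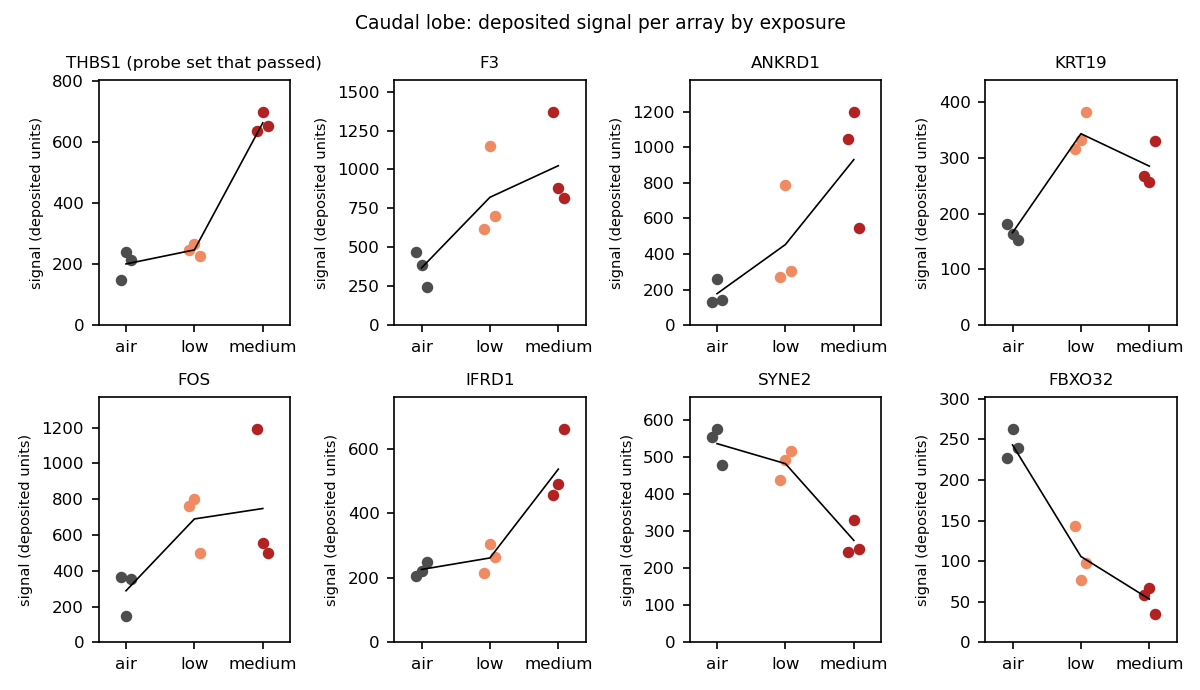
Deposited caudal signal of 8 transcripts in air, low (60 µg/kg) and medium (100 µg/kg) animals, each point an animal and each line through the group means. FBXO32 is lowest in medium lobes, KRT19 is highest in low lobes, and IFRD1 is high in medium lobes with low lobes near air.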

How the data were processed

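The authors deposited a signal intensity for each probe set, with 1 column per array. The mean after trimming 2% at each end was 150.0 on every array; the summarization software is not given in the sources used here. Controls (124 of 24123 probe sets) were left out. Deposited intensities were used as log2(signal + 16), and the 28 arrays were quantile normalized because lower quartiles differed by up to 0.316.

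Medium minus air was taken from a fit of the 9 caudal arrays with limma 3.58.1 (lmFit, eBayes) in R 4.3.3, in which the 3 low arrays serve the shared spread, with 6 residual degrees of freedom. Tables and figures used Python 3.11.15. Adjusted p-values are Benjamini-Hochberg over 23999 probe sets. Lobes were compared over 28 arrays in a fit that holds each animal fixed as a block, since lobes of an animal are paired by its number. Exposures share no animal, so medium and air are not paired.

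The supplied annotation gave 1 symbol for 10069 probe sets, several for 198 and none for 13732, in all 6765 single symbols, of which 2261 had more than 1 probe set. Entrez IDs of 9961 matched the RefSeq gene table, which changed 0 symbols. Members and gene lists were chosen with earlier results of these data known. Named genes are the probe set that passed, the 15 higher and 15 lower of smallest p with a signal of at least 50 in the higher group, up to 3 members per list, 13 fixed genes and up to 6 of the lobe contrast. The test was checked on simulated data. Each array is a separate animal within a group, and the number of arrays limits precision.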

Additional observations from a re-analysis of the deposited data

How the results depend on the processing

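Against 1 probe set passing in medium minus air, 0 passed with an offset of 1, with only the medium and air arrays, or with the 3' to 5' index as a covariate, 2 with an offset of 64, 4 with trend and robust variance, 5 among the brighter probe sets, and 97 (29 higher) with all 28 arrays and the animal as a random replicate block. Leaving out 1 animal gave 0 to 244, the highest without medium animal 34 (102 higher). With limma, the counts at an unadjusted p under 0.05 ranged from 2447 to 4689 where all 23999 probe sets were tested. The THBS1 probe set differed by 1.77 with an offset of 1 (adjusted p = 0.115), 1.69 with only medium and air arrays (0.19), 1.54 under the random replicate block (0.0835), 1.605 with the index (0.121) and 0.89 as the mean of its probe sets (0.114), and by 1.505 to 1.825 without 1 animal. It kept its pass under the deposited scaling, median-centred arrays, quantile normalization of the caudal arrays, an offset of 64, and trend and robust variance. The lobe difference gave 0 calls in every setting, including no replicate block and a random replicate block, with 866 to 2010 at an unadjusted p under 0.05 where all probe sets were tested. The causes were not tested. The signals carry no detection call, so dim probe sets have an unknown floor.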

Other observations

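Other gene groups of the caudal lobe gave values outside the lists described above, and none of their members passed in medium minus air. Smooth muscle markers were above 0 by brightest probe set in all 7 measured genes, with a median of 0.15 (0.10 to 0.34 with 1 animal left out). A dimmer ACTG2 probe set went the other way, at -0.45 ± 0.12, against 0.25 ± 0.21 for the brightest. The contractile gene TAGLN had signals of 1990, 2238 and 2037 in medium lobes and 1583, 1488 and 1797 in air lobes (0.36 ± 0.11). NOS3, the nitric oxide synthase of endothelium, had 140, 178 and 158 in medium lobes and 110, 127 and 108 in air lobes (0.43 ± 0.12), in a list of 15 vasoactive genes with a median of 0.08 (-0.02 without air animal 28). NME1, a nucleoside diphosphate kinase, had 575, 382 and 407 in medium lobes and 259, 227 and 324 in air lobes (0.72 ± 0.20), and 12 of 14 MYC and nucleotide synthesis genes were above 0. With 1 animal left out, 9 to 13 of these genes were above 0.

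Proteasome subunits were above 0 in 23 of 32 genes with a median of 0.10 (0.01 without medium animal 34), and PSMD14, a deubiquitinase of the regulatory particle, had 632, 614 and 597 in medium lobes and 462, 462 and 459 in air lobes (0.42 ± 0.10). Its groups each spread by little and did not overlap. MHC class II genes were above 0 in 2 of 9 with a median of -0.03 (-0.13 without medium animal 34 and 0.01 without medium animal 41). SLA-6, a class I gene, had 590, 506 and 326 in medium lobes and 785, 668 and 757 in air lobes (-0.65 ± 0.19), and as a member of a family of similar genes its signal may include others. PFKM, the muscle type phosphofructokinase, had 64, 75.1 and 55.9 in medium lobes and 89.7, 108 and 94.3 in air lobes (-0.50 ± 0.12), while 9 of 15 glycolysis genes were above 0. MS4A2, a chain of the IgE receptor of mast cells, had 96.2, 63.8 and 90.5 in medium lobes and 117, 168 and 122 in air lobes (-0.62 ± 0.18), and 1 of 3 mast cell markers was above 0. The median of these markers was -0.37, from -0.70 without air animal 28 to 0.10 without air animal 44.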
